A study of Rattus norvegicus with 7 samples.

Results

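This account concerns 10 rat genes of acute inflammation and leukocyte adhesion: the cytokines Il1b, Il6, Tnf and Il18, the alarmins S100a8 and S100a9, the NF-kappaB inhibitor Nfkbia, and the adhesion molecules Icam1, Vcam1 and Sele. They were taken as every probe set whose single gene symbol in the platform annotation was one of these names, which gave 11 of the 31042 non-control probe sets on the array. Tnf had 2 probe sets (1387691_at and 1391384_at). The others had 1 each: Il1b 1398256_at, Il6 1369191_at, Il18 1369665_a_at, S100a8 1368494_at, S100a9 1387125_at, Nfkbia 1389538_at, Icam1 1387202_at, Vcam1 1368474_at and Sele 1388018_at. Lung RNA was measured on 7 Affymetrix rat arrays in 2 groups of Dahl salt-sensitive rats weighing 250 to 350 g. The 4 HSU_Sor arrays came from rats kept in hypoxia, at an inspired oxygen fraction of about 9.5%, and given SU-5416 and sorafenib. The 3 HSU arrays came from rats in the same hypoxia given SU-5416 alone. Both groups therefore carried hypoxia and SU-5416, an inhibitor of VEGF receptors, and the right lung was frozen at 3.5 weeks after its vessels had been flushed with saline. Hypoxia combined with SU-5416 produces severe pulmonary hypertension in rats. Sorafenib inhibits RAF kinases and several receptor tyrosine kinases. The comparison asked whether these transcripts differed once sorafenib was added. The normoxia and hypoxia-only groups of the design were not analysed here.

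The genes belong to 1 well-known circuit. IL-1 beta and TNF act through their receptors to free NF-kappaB from its inhibitor, the product of Nfkbia, and NF-kappaB then drives transcription of Il6, of Icam1, Vcam1 and Sele on endothelium, and of Nfkbia itself, which closes a feedback loop. S100A8 and S100A9 form the calprotectin complex, are abundant in neutrophils and monocytes, and signal through TLR4 and the receptor AGER. IL-18 is stored as a precursor, also in epithelium and macrophages, and is cut by caspase-1, as IL-1 beta is. In the lung, selectins and the ICAM1 and VCAM1 proteins slow and hold leukocytes on the vessel wall.

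The values are log2 expression per probe set, and the 7 array medians lay between 3.59 and 3.68. The labels describe rats per group but do not tie each array to an animal, so p-values measure the spread between these arrays. Every HSU title carries the letter b after its replicate number and no HSU_Sor title does, so a difference that goes with this letter cannot be told apart from one that goes with sorafenib. Some arrays stood apart in transcripts of other cells. Cardiac alpha-myosin Myh6 was at 7.85 to 9.29 in HSU_Sor lungs, against 10.65, 10.79 and 8.29 on HSU 1b, 2b and 3b. The erythroid enzyme Alas2 was at 2.76 and 2.79 on HSU_Sor 3 and 4, at 11.45 and 8.58 on HSU_Sor 1 and 2, and at 8.41 to 9.76 in HSU lungs. The labelled tissue was borne out by its defining genes: the surfactant gene Sftpc was at 15.39 to 15.54 in HSU_Sor lungs and at 15.46 to 15.49 in HSU lungs. The airway gene Scgb1a1 was at 15.82 to 15.97 in HSU_Sor lungs and at 15.85 to 15.91 in HSU lungs. The other airway secretory markers had lower means in HSU_Sor lungs. Bpifa1, a secreted airway protein gene, was at 9.78, 8.60, 7.75 and 6.00 on HSU_Sor 1 to 4, against 13.30, 12.22 and 9.61 on HSU 1b, 2b and 3b (log2 difference -3.68 ± 1.16, SE, adjusted p = 0.756, limma). Cyp2f4 differed by -0.53 ± 0.22. The mean log2 level of these 3 markers ran from 10.42 to 11.98 in HSU_Sor lungs and from 11.91 to 13.30 in HSU lungs, and its part in the results was not tested. In such whole-lung samples, fewer cells of a type and less RNA per cell cannot be told apart.

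None of the 10 genes passed the test of HSU_Sor minus HSU. With limma and Benjamini-Hochberg adjustment over the 15521 probe sets whose mean was above 3.64, the median of all, 0 member probe sets had an adjusted p below 0.05, and 0 did at an unadjusted p below 0.05. Under some alternatives Icam1, S100a8, S100a9, Vcam1 or Sele had an unadjusted p below 0.05, and none had an adjusted one below it. Over all probe sets tested, 0% were called at the adjusted threshold and 6% at the unadjusted one. Of the 10 genes, 7 were above the filter (Il1b, Il18, S100a8, S100a9, Nfkbia, Icam1 and Vcam1) and 3 were below it (Il6, Tnf and Sele). The adjusted p of the 7 ran from 0.874 to 0.938 by limma. In the HSU_Sor lungs 5 of the 7 had a higher mean and 2 a lower one, where 46% of all probe sets tested were higher and 54% lower. The 7 differences had a median of 0.16 on the log2 scale, against -0.0074 over all probe sets tested. A mean difference of at least 1.4-fold was seen in 3 of the 7 (Il1b, S100a8 and S100a9), and in 4.46% of all probe sets tested. Without HSU_Sor 3 the log2 difference of Il1b was 0.00026, and S100a8 and S100a9 had a Pearson r of 0.981 across arrays. The count thus does not rest on independent genes. Groups did not overlap in 2 of the 7, Icam1 and Nfkbia, and in 5.26% of all probe sets tested. Icam1 had the smallest unadjusted p of the 7, so the following was computed for a gene chosen by its values. Its two-sided exact permutation test on the absolute difference in means, over the 35 splits of 4 and 3 arrays, gave p = 0.114, where the smallest p this test allows is 0.0286.

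**Figure D1:**
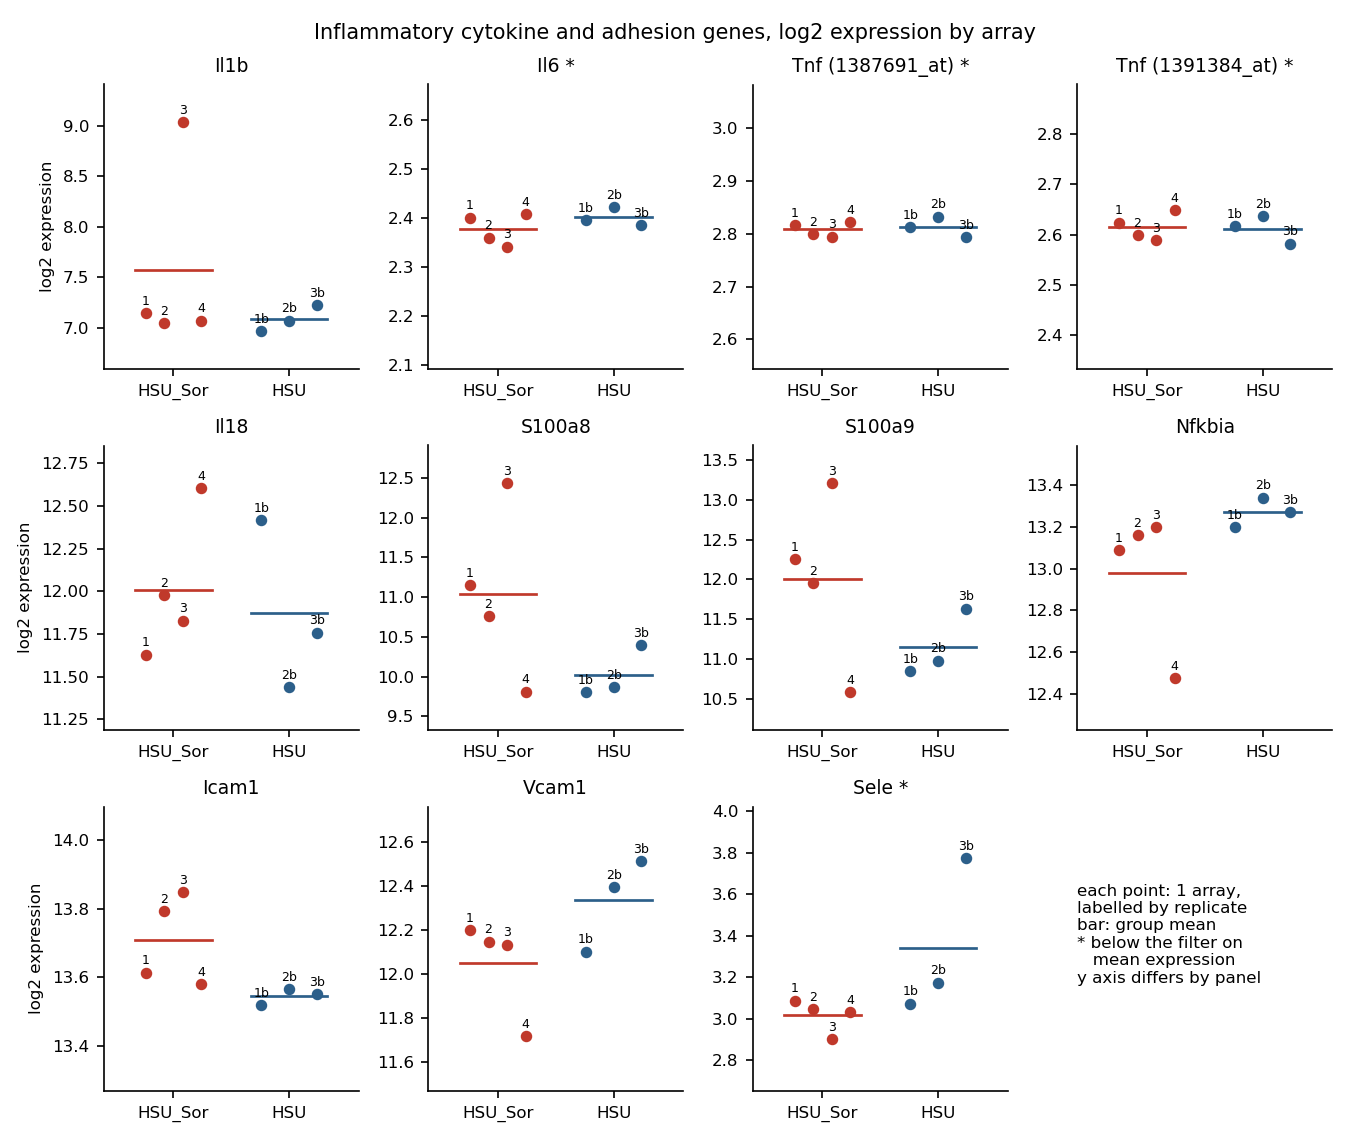
Log2 expression (y axis, a separate scale in each panel) of each of the 11 probe sets in the 4 HSU_Sor arrays (left, red) and the 3 HSU arrays (right, blue). Points are arrays labelled by replicate, bars are group means and asterisks mark probe sets below the filter. HSU_Sor 3 stands at 9.04 for Il1b and 12.43 for S100a8, HSU_Sor 4 stands lowest for Nfkbia at 12.48 and Vcam1 at 11.72, and Il6 and Tnf are flat.

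NF-kappaB binds short sites in promoters, and the promoters of Nfkbia, Vcam1, Icam1 and Il6 are shown so that those letters can be seen. The sequences are from RefSeq on build GRCr8, where 9 of the 10 genes had an entry and S100a8 had none. Each line gives the 150 bases before the annotated start, 5′ to 3′ on the strand of the gene, with capitals where a kappaB motif matched. The strict motif searched was GGGNNNTTCC and the loose one GGGNNNNNCC, both on either strand. Every strict match is also a loose one, and overlapping matches run together.
Nfkbia (chr6:78597073-78597222, minus strand): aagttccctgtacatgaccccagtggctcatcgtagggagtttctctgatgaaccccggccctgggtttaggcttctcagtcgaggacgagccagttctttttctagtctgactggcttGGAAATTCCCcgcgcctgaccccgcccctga
Vcam1 (chr2:206742784-206742933, minus strand): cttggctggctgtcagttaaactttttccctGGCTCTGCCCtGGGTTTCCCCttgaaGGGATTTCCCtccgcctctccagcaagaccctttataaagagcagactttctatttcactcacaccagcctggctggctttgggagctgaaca
Icam1 (chr8:27829695-27829844, plus strand): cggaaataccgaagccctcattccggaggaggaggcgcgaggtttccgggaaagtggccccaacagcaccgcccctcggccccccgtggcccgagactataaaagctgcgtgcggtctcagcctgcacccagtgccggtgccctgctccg
Il6 (chr4:5894576-5894725, minus strand): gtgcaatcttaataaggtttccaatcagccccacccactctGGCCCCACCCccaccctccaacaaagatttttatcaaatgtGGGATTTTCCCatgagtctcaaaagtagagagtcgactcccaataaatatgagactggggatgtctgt

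In the 250 bases before the start, the strict motif was found in 2 of the 9 members with an entry, Il6 (GGGATTTTCC, positions -68 to -59 from the start) and Nfkbia (on the other strand, read here as GGAAATTCCC, positions -31 to -22). It was in 4.53% of the 33469 promoters in the table. The loose motif was found in 6 of the 9 (Il6, Tnf, Il18, Nfkbia, Icam1 and Vcam1) and in 42.3% of all. Il1b, S100a9 and Sele held neither motif. The promoters printed are thus all of genes with a match. Vcam1 held it at 3 positions, of which GGGTTTCCCC and GGGATTTCCC match on both strands. The loose match of Icam1, read here as GGACCACCCC, lies at positions -185 to -176, outside the stretch printed. The TATA motif TATAAA was found in 5 of the 9 (Il1b, Tnf, S100a9, Icam1 and Vcam1) and in 12.9% of all. A match describes letters in this window and is no measurement of binding.

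Among the cytokines, Il1b was set apart on 1 array. Il1b, which encodes the fever-inducing cytokine IL-1 beta, was at 7.14, 7.05, 9.04 and 7.07 on HSU_Sor 1 to 4, against 6.96, 7.07 and 7.22 on HSU 1b, 2b and 3b. HSU_Sor 3 lay 1.81 above the next array, while the other 6 arrays spanned 0.26 and the groups overlapped. The log2 difference was 0.49 ± 0.51 (SE), with a 95% interval from -0.74 to 1.72 and an adjusted p of 0.897 by limma. Without HSU_Sor 3 it was 0.00026. HSU_Sor 3 lay at least 1 above every other array in 58 of 15521 probe sets (0.374%), and each of the other arrays did so in 11 to 38.

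Il6, which encodes the cytokine that drives the acute-phase response, and Tnf, which encodes a main activator of NF-kappaB, gave flat values at the lower end of the scale. Il6 was at 2.40, 2.36, 2.34 and 2.41 on HSU_Sor 1 to 4, against 2.40, 2.42 and 2.39 on HSU 1b, 2b and 3b, a span of 0.08 over all 7 arrays. The Tnf probe set 1387691_at spanned 0.04, from 2.79 to 2.82 in HSU_Sor lungs and from 2.79 to 2.83 in HSU lungs. The other, 1391384_at, spanned 0.07, from 2.59 to 2.65 in HSU_Sor lungs and from 2.58 to 2.64 in HSU lungs. At this floor a log2 difference understates any change, so these values say little about either gene. The promoter of Il6 is the last of those printed above.

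Il18 varied between arrays within both groups. It was at 11.63, 11.98, 11.83 and 12.60 on HSU_Sor 1 to 4, against 12.42, 11.44 and 11.76 on HSU 1b, 2b and 3b. HSU_Sor 4 and HSU 1b were the 2 highest arrays, HSU 2b was the lowest, and the groups overlapped. The log2 difference was 0.14 ± 0.31 (SE), with a 95% interval from -0.60 to 0.88 (adjusted p = 0.938, limma). It was -0.059 without HSU_Sor 4 and -0.077 without HSU 2b.

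S100a8 and S100a9 had the widest mean differences of the 10 genes and also the widest spread. S100a8 was at 11.15, 10.76, 12.43 and 9.81 on HSU_Sor 1 to 4, against 9.80, 9.87 and 10.40 on HSU 1b, 2b and 3b. HSU_Sor 1, 2 and 3 lay above every HSU array, and HSU_Sor 4 lay level with the lowest of them. The group means were 11.04 ± 1.09 (SD, n = 4) in HSU_Sor lungs and 10.02 ± 0.33 (SD, n = 3) in HSU lungs, a 2.02-fold difference with a 95% interval from 0.764-fold to 5.35-fold (adjusted p = 0.874, limma). S100a9 was at 12.25, 11.96, 13.21 and 10.58 on HSU_Sor 1 to 4, against 10.84, 10.98 and 11.63 on HSU 1b, 2b and 3b. Here HSU_Sor 4 was the lowest of all 7 arrays and HSU_Sor 3 again the highest. The difference was 1.80-fold with a 95% interval from 0.668-fold to 4.85-fold (adjusted p = 0.874, limma). Without HSU_Sor 3 the log2 differences were 0.55 for S100a8 and 0.44 for S100a9, against 1.02 and 0.85 with all arrays. Without HSU_Sor 4 they were 1.425 and 1.32, and with both arrays left out 0.93 and 0.95. Without HSU 1b and 2b, the arrays with the highest Myh6, they were 0.64 and 0.37. None of these passed the adjusted threshold.

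The pair followed each other across arrays. Over the 7 arrays, S100a8 and S100a9 had a Pearson r of 0.981 (exact permutation p = 0.000397, adjusted p = 0.00834 over the 21 pairs of the 7 members above the filter). Spearman's rho was 0.964 (exact permutation p = 0.00278, adjusted p = 0.0584). Without HSU_Sor 1 and 3, the 2 arrays farthest from the median of S100a8, r was 0.972. It was the 1 pair of the 21 to pass adjustment by Pearson's r, and groups of 4 and 3 arrays were too small for a value within each. No protein-coding gene lies between S100a8 and S100a9 on chromosome 2 in the RefSeq annotation. Of 9298 other genes above the filter, the one whose array profile was most like that of S100a8 was S100a9, with a root mean square difference of 0.18 between their values after each was centred on its 7-array mean. S100a8 was likewise the nearest to S100a9. Stfa2l2, a gene of the stefin A group of protease inhibitors, came next for both, at 0.35 from S100a8 and 0.25 from S100a9. Il1b followed these for S100a8 at 0.455, and Avil for S100a9 at 0.452. The genes nearest to Il1b itself were Ggt5, Dnali1 and Katnbl1, at 0.316 to 0.328, each highest on HSU_Sor 3.

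**Figure D2:**
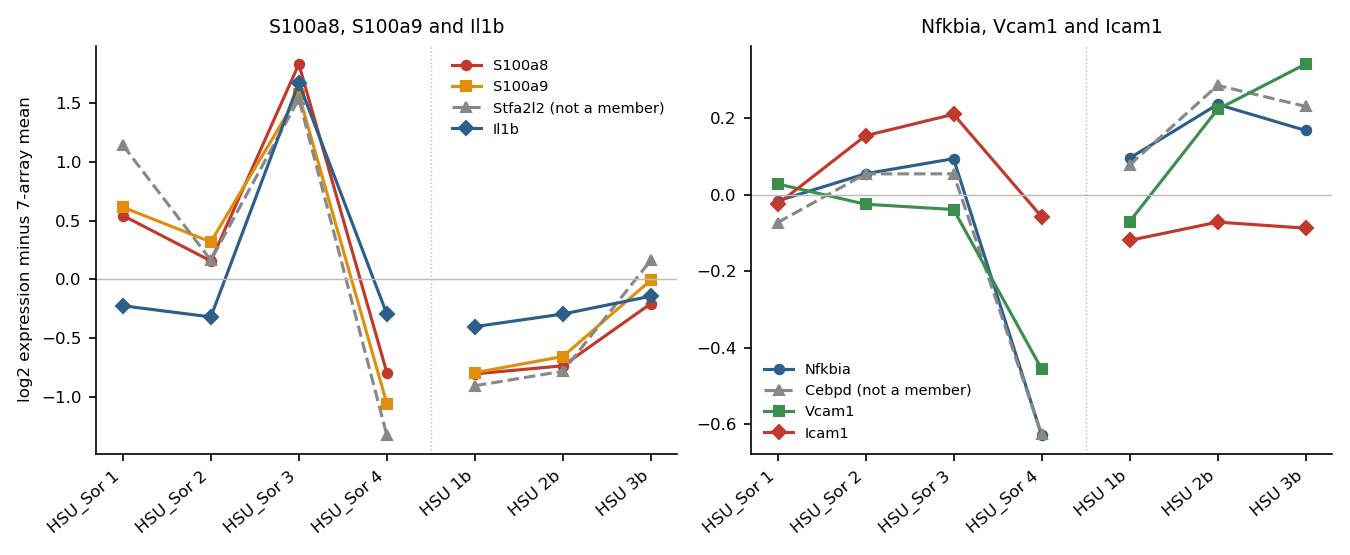
Log2 expression minus the mean over the 7 arrays (y axis) for each array (x axis, HSU_Sor arrays left of the dotted line, HSU arrays right of it). In the left panel S100a8, S100a9 and Stfa2l2 run together across all arrays while Il1b leaves its level on HSU_Sor 3 alone, and in the right panel Nfkbia, Cebpd and Vcam1 have their lowest value on HSU_Sor 4 while Icam1 is highest on HSU_Sor 3.

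Markers of neutrophils, which carry S100A8 and S100A9 in quantity, were mostly at the floor. Of 12 listed markers 7 were on the array, here and below meaning that a probe set had that name as its single gene symbol. Of these, 6 were below the filter (Csf3r, Cxcr2, Camp, Mmp8, Mmp9 and Padi4). Csf3r, the receptor for granulocyte colony-stimulating factor, was at 2.22, 2.18, 2.89 and 2.22 on HSU_Sor 1 to 4, against 2.21, 2.21 and 2.19 on HSU 1b, 2b and 3b. It was thus highest on HSU_Sor 3, where S100a8, S100a9 and Il1b were highest. On that array Cxcr2, Mmp8, Mmp9 and Padi4 had their lowest values of the 7 arrays, 2.20, 2.28, 1.96 and 2.63. These markers spanned only 0.05 to 0.11 over the 7 arrays. The median of all probe sets was also lowest on HSU_Sor 3, at 3.59, so these values show no fall of the markers. Camp was at 2.00 there, and from 1.99 to 2.04 over all arrays. Cxcr2, a chemokine receptor of neutrophils, was at 2.20 to 2.24 in HSU_Sor lungs and at 2.22 to 2.25 in HSU lungs. The seventh marker, Lcn2, is also made by lung epithelium, stands in the list of IL-6 and TNF responsive genes as well, and was at 13.03 to 14.01 in HSU_Sor lungs and at 13.22 to 14.46 in HSU lungs. The mean log2 level of the list ran from 3.78 to 3.94 in HSU_Sor lungs and from 3.83 to 3.99 in HSU lungs, and on the linear scale its summed level ran from 8404 to 16580 in HSU_Sor lungs and from 9545 to 22600 in HSU lungs. Lcn2 makes up nearly all of that sum, so it is no measure of the other 6 markers. Of 10 macrophage and monocyte markers 8 were on the array, with a mean log2 level from 8.20 to 8.25 in HSU_Sor lungs and from 8.02 to 8.46 in HSU lungs. The part of either cell type in the S100 values was not tested.

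Nfkbia, whose protein holds NF-kappaB in the cytoplasm, was lower on every HSU_Sor array than on any HSU array, by a margin smaller than the rounding used here. It was at 13.09, 13.16, 13.20 and 12.48 on HSU_Sor 1 to 4, against 13.20, 13.34 and 13.27 on HSU 1b, 2b and 3b. HSU_Sor 4 lay 0.61 below every other array, and the remaining 3 HSU_Sor arrays were just below the HSU range. The log2 difference was -0.29 ± 0.18 (SE), with a 95% interval from -0.73 to 0.15 (adjusted p = 0.874, limma). Without HSU_Sor 4 it was -0.12, and without HSU_Sor 3 and 4, the arrays with low Alas2, -0.15. Of all probe sets tested, 3.25% had every HSU_Sor array below every HSU array. The gene whose array profile was most like that of Nfkbia was Cebpd, which encodes the transcription factor C/EBP delta, at a root mean square difference of 0.0405. Cebpd was at 12.29, 12.42, 12.42 and 11.74 on HSU_Sor 1 to 4, against 12.44, 12.65 and 12.60 on HSU 1b, 2b and 3b, again with HSU_Sor 4 lowest. Cmtm3 and Col6a3 followed at 0.059 and 0.0598.

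Among the adhesion molecules, Icam1 had a higher mean in HSU_Sor lungs, and Vcam1 and Sele had lower ones, none past the test. Icam1, the endothelial and epithelial ligand of the leukocyte integrin LFA-1, was at 13.61, 13.79, 13.85 and 13.58 on HSU_Sor 1 to 4, against 13.52, 13.57 and 13.55 on HSU 1b, 2b and 3b. Every HSU_Sor array lay above every HSU array, a pattern that 2.01% of all probe sets tested shared, and HSU_Sor 4 was the closest to the HSU range. The HSU_Sor mean was 1.12-fold the HSU mean, with a 95% interval from 0.982-fold to 1.28-fold (adjusted p = 0.874, limma). Nup98, a nuclear pore gene, had the most similar array profile, at a root mean square difference of 0.0275. Such differences depend on the spread of the member itself. The root mean square about its own mean was 0.119 for Icam1, 0.267 for Nfkbia and 0.888 for S100a8. They therefore cannot be compared between members.

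Vcam1, the endothelial ligand of the integrin VLA-4, was at 12.20, 12.145, 12.13 and 11.72 on HSU_Sor 1 to 4, against 12.10, 12.39 and 12.51 on HSU 1b, 2b and 3b. HSU 1b lay below 3 of the 4 HSU_Sor arrays, so the groups overlapped. The log2 difference was -0.29 ± 0.15 (SE), with a 95% interval from -0.65 to 0.08 (adjusted p = 0.874, limma), and without HSU_Sor 4 it was -0.18. Leaving out HSU 1b and 2b gave -0.46, and leaving out HSU_Sor 3 and 4 gave -0.16. Nap1l4, a histone chaperone gene, had the most similar profile at 0.0294. Vcam1 and Nfkbia had a Pearson r of 0.879 over the 7 arrays (exact permutation p = 0.0125, adjusted p = 0.0792 over the 21 pairs), which was 0.585 without HSU 2b and HSU_Sor 4. Their promoters are the first and second of those printed above.

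Sele encodes E-selectin, which endothelium displays after cytokine stimulation. It was at 3.09, 3.04, 2.90 and 3.03 on HSU_Sor 1 to 4, against 3.07, 3.17 and 3.77 on HSU 1b, 2b and 3b. These values are below the filter, and HSU 3b alone left the low range, 0.60 above the next array. The log2 difference was -0.32 ± 0.17 (SE, adjusted p = 0.91, limma on all probe sets), and without HSU 3b it was -0.11. With HSU 1b and 2b left out it was -0.757, a comparison that rests on HSU 3b as the lone HSU array, assumed to vary like the HSU_Sor arrays.

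**Figure D3:**
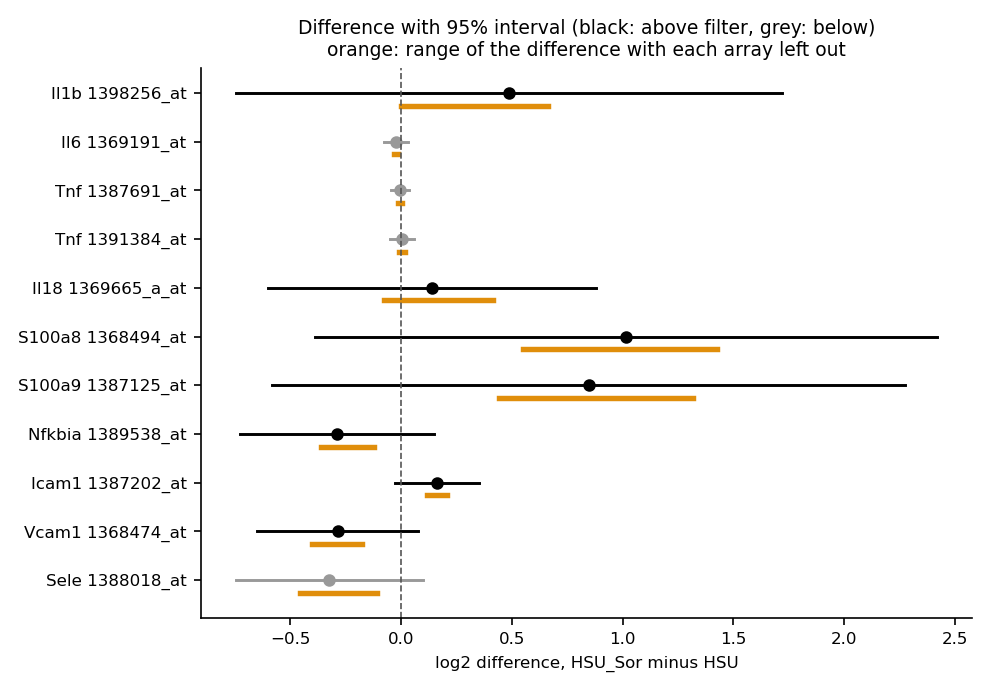
Log2 difference of HSU_Sor minus HSU (x axis) for each of the 11 probe sets, with its 95% interval in black for probe sets above the filter and in grey for those below. Orange bars give the range of the difference when each array is left out in turn, from 0.55 to 1.425 for S100a8 and from 0.00026 to 0.66 for Il1b, and every black or grey interval includes 0.

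The receptors and processing enzymes of these ligands had a median difference close to 0. Of 22 listed genes of receptors, antagonists and the inflammasome, 19 were on the array and 14 above the filter, with 9 higher and 5 lower in HSU_Sor lungs, a median log2 difference of 0.03, and 0 of the 14 past the adjusted or the unadjusted threshold by limma. The main IL-1 receptor Il1r1 differed by -0.02 ± 0.14 (SE), with 10.94 to 11.49 in HSU_Sor lungs and 11.17 to 11.40 in HSU lungs. Il1rn, the natural antagonist of that receptor, lay at the floor, spanning 0.05 over all arrays. The related cytokine gene Il1a ranged more widely than any member, from 6.85 to 10.37 in HSU_Sor lungs and from 6.66 to 9.46 in HSU lungs, with fully overlapping groups. Casp1, which cuts both IL-1 beta and IL-18, differed by 0.05 ± 0.18. The secreted IL-18 antagonist Il18bp differed by -0.11 ± 0.19. For IL-6, the receptor Il6r differed by 0.15 ± 0.22 and the shared signalling chain Il6st by -0.16 ± 0.08. The TNF receptor Tnfrsf1a was at 11.58, 11.66, 11.66 and 11.34 on HSU_Sor 1 to 4, against 11.76, 11.74 and 11.71 on HSU 1b, 2b and 3b, with no overlap between the groups (difference -0.18 ± 0.09, adjusted p = 0.874, limma). The other TNF receptor, Tnfrsf1b, was below the filter, at 3.26, 3.44, 3.84 and 2.85 on HSU_Sor 1 to 4, against 2.51, 2.58 and 3.04 on HSU 1b, 2b and 3b (difference 0.64 ± 0.26, unadjusted p = 0.0466 and adjusted p = 0.91, limma on all probe sets). Its highest array was again HSU_Sor 3. Of the receptors for S100A8 and S100A9, Tlr4 differed by 0.16 ± 0.09 and Ager by 0.04 ± 0.07.

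Other genes of the NF-kappaB pathway lay on both sides of 0. Of 19 listed, 16 were on the array and 15 above the filter, with 6 higher, 9 lower, a median of -0.02 and 0 past the adjusted threshold by limma. At an unadjusted p below 0.05 there was 1 higher, Nfkb2, a precursor subunit (0.24 ± 0.10, SE), and 1 lower, Bcl3, a nuclear I-kappaB protein (-0.23 ± 0.09). Over all probe sets tested, 2.33% were higher and 3.67% lower at that threshold. Nfkbiz, an inducible nuclear I-kappaB protein, differed by 0.49 ± 0.24, and Nfkb1 by -0.12 ± 0.07 with its lowest value, 10.68, on HSU_Sor 4. Of 15 genes that respond to IL-6 and TNF, 14 were on the array and 11 above the filter, with 4 higher, 7 lower, a median of -0.06 and 0 past the adjusted threshold. The acute-phase protein haptoglobin, Hp, was the 1 gene of this list at an unadjusted p below 0.05, with 8.66 to 9.20 in HSU_Sor lungs and 9.09 to 9.87 in HSU lungs, a mean difference of -0.55 ± 0.21. The inducible cyclo-oxygenase Ptgs2 differed by 0.66 ± 0.30, and Lcn2 by -0.61 ± 0.37.

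The chains of the ICAM1 receptor LFA-1 were above the filter, and some other partners were at the floor. Of 19 adhesion partners 16 were on the array and 12 above the filter, with 6 higher, 6 lower, a median of -0.0071 and 0 past the adjusted threshold by limma. The LFA-1 chains Itgal and Itgb2 differed by 0.26 ± 0.19 (SE) and 0.17 ± 0.20. The Mac-1 chain Itgam was below the filter, at 2.50 to 2.55 in HSU_Sor lungs and 2.53 to 2.56 in HSU lungs. P-selectin, Selp, was below it too, at 2.81 to 2.87 in HSU_Sor lungs and 2.86 to 2.87 in HSU lungs. Icam2, a constitutive relative of Icam1, differed by 0.11 ± 0.06, with HSU_Sor 2 and 3 highest, as for Icam1. At an unadjusted p below 0.05 there were 3 of the 12 genes, all lower and with groups that did not overlap. Over all probe sets tested, 3.67% were lower at that threshold and 3.25% were lower without overlap. These were the junctional molecule Jam3 (-0.55 ± 0.15, adjusted p = 0.683), the dendritic cell and macrophage integrin chain Itgax (-0.70 ± 0.25, adjusted p = 0.812) and the VLA-4 chain Itgb1 (-0.14 ± 0.05, adjusted p = 0.812, all by limma). Itgax lay at 6.02 to 6.25 in HSU_Sor lungs, against 6.25, 6.99 and 7.39 on HSU 1b, 2b and 3b, so HSU 1b was level with the highest HSU_Sor array after rounding.

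The other S100 genes had differences on both sides of 0. All 11 listed were on the array and 8 above the filter, with 2 higher, 6 lower, a median of -0.10 and 0 past the adjusted or unadjusted threshold by limma. S100a6, a calcium sensor of many cell types, differed by -0.08 ± 0.05 (SE) and S100a4, found in fibroblasts and leukocytes, by -0.17 ± 0.09. S100a13 differed by 0.32 ± 0.16 and S100a1 by 0.16 ± 0.09. Over all 7 arrays the 8 spans ran from 0.18 for S100a6 to 1.93 for S100g, a calcium-binding protein gene lowest on HSU_Sor 4, where S100a8 and S100a9 each spanned 2.63. S100b, below the filter, spanned 0.96.

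**Figure D4:**
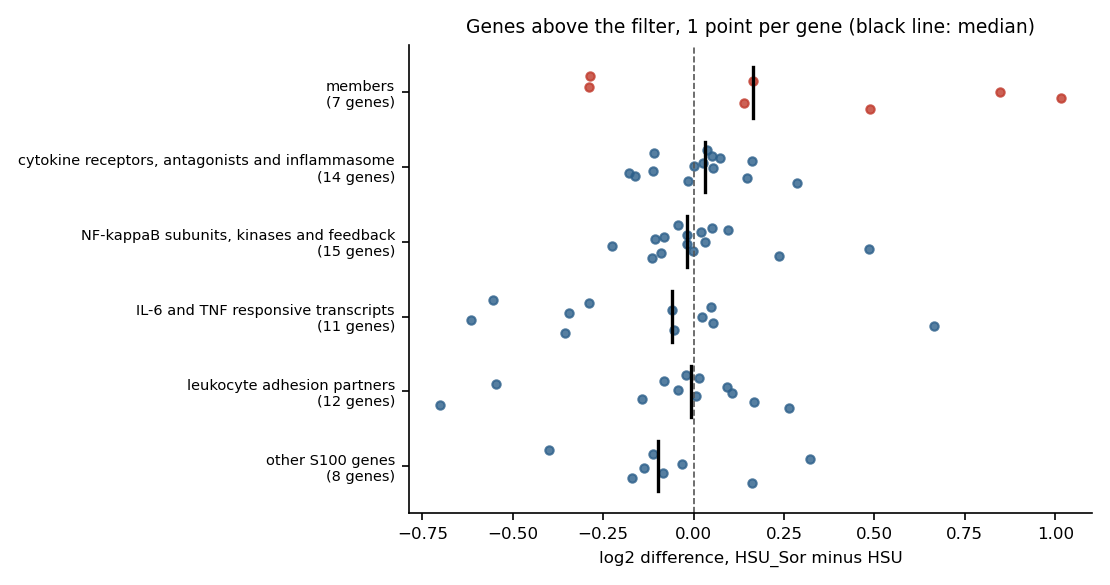
Log2 difference of HSU_Sor minus HSU (x axis) of each gene above the filter, 1 point per gene, for the 7 members (red) and 5 related lists (blue), with black lines at the medians. The members range from -0.29 to 1.02 and their median is 0.16, and the medians of the other lists lie between -0.10 and 0.03.

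Endothelial markers, on cells that make the ICAM1, VCAM1 and E-selectin proteins, were measured beside them. Of 9 listed genes 8 were on the array and all 8 above the filter, with a mean log2 level from 12.35 to 12.78 in HSU_Sor lungs and from 12.49 to 12.61 in HSU lungs. The lowest and highest of these were HSU_Sor 4 and HSU_Sor 3. Vcam1 was lowest on HSU_Sor 4, but its 12.13 on HSU_Sor 3 was below HSU_Sor 1 and 2. Icam1 was highest on HSU_Sor 3, but its 13.58 on HSU_Sor 4 was above every HSU array. Of the 8 endothelial genes 3 had a higher mean in HSU_Sor lungs and 5 a lower one. Vwf, which encodes von Willebrand factor, was at 12.29, 12.25, 12.25 and 12.002 on HSU_Sor 1 to 4, against 11.77, 11.72 and 11.87 on HSU 1b, 2b and 3b, without overlap (difference 0.41 ± 0.08, SE, adjusted p = 0.567, limma). Emcn, an endothelial sialomucin gene, differed by -0.25 ± 0.18, and Pecam1, a junction protein gene, by -0.04 ± 0.16. Smooth muscle, which can also make VCAM1, went with the groups: all 7 listed genes had a lower mean in HSU_Sor lungs, 4 of them without overlap, with 0 past the adjusted threshold by limma. Over all probe sets tested, 54% had a lower mean and 3.25% were lower without overlap. Its mean log2 level ran from 11.26 to 11.84 in HSU_Sor lungs and from 12.21 to 12.34 in HSU lungs. T and NK cell markers ran from 5.30 to 5.62 in HSU_Sor lungs and from 5.27 to 6.10 in HSU lungs, with HSU 3b highest, as it was for Sele. The 4 B cell markers on the array were below the filter. The part of these cell types in the values of the adhesion molecules was not tested.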

How the data were processed

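The values are the authors' deposited log2 probe set signals of 4 HSU_Sor and 3 HSU arrays, taken as already normalized. RMA and GCRMA are named per the submitters' processing notes, and the sources used here do not say which made the values. The 57 control probe sets were left out. Of the rest, 20826 had 1 gene symbol, 436 several and 9780 none. All 10 members matched the RefSeq table of assembly GRCr8 by gene identifier. HSU_Sor minus HSU was fitted with limma (version 3.58.1, R 4.3.3; lmFit and eBayes, two-sided, no covariate) on the probe sets with a mean above 3.64, with Benjamini-Hochberg adjustment. Members below this filter were taken from the same fit on all probe sets. Named genes were all members, up to 4 genes of each related list with the smallest unadjusted p, and receptors and partners of members. Some of the 3 most similar profiles per member above the filter were named as well. Each listed gene was represented by its probe set of highest mean among those with that single symbol. Listed genes were not looked for among probe sets with several symbols or none, so a gene not counted may still be measured there. Alternatives were other filters, quantile or median scaling, an intensity trend, probe set means, the replicate number as a block and left-out arrays. The fit was tested on simulated data. Members and lists were chosen with earlier results of these data known.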

Additional observations from a re-analysis of the deposited data

Results flagged for a closer look

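The 31 probe sets examined were the members and, of each related list, the 4 genes above the filter with the smallest unadjusted p by limma. Other related-list genes named in the text, such as S100g, were not examined. Within the 4 HSU_Sor arrays, 7 of the 31 had 1 array whose gap to the next exceeded 0.829 of the range, Dixon's critical value for 4 arrays. For independent normal values, chance flags about 1 in 20 such groups. The probe sets examined share the same 4 arrays, and the related genes were picked by small p-values. The share over all probe sets was not computed, so the count cannot be read against that rate. Il1b was at 9.04 on HSU_Sor 3, against 7.05 to 7.14 on the other HSU_Sor arrays. HSU_Sor 4 was the low array for Nfkbia at 12.48, Vcam1 at 11.72, Nfkb1 at 10.68 and Itgax at 6.02. On the same array Lcn2 was the high value at 14.01, against 13.03 to 13.15 on the others. Itgb1 was at 13.53 on HSU_Sor 3, against 13.41 to 13.42 on the others.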

How the results depend on the processing

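By limma, 0 of the 11 member probe sets and 0 related-list genes had an adjusted p below 0.05 in any of the 16 alternatives. Unadjusted, limma gave Icam1 0.0165 with quantile normalization and 0.0359 without HSU_Sor 4. It gave S100a8 0.00683 and S100a9 0.00132 with the replicate block, 0.0255 and 0.0171 without HSU_Sor 4, and 0.0153 and 0.0242 without HSU_Sor 3 and 4 (adjusted p from 0.534 to 0.788). Without HSU 1b it gave Vcam1 0.0432 and Sele 0.0442, and Sele had 0.000686 (adjusted p = 0.105) without HSU 1b and 2b. Over all probe sets the count of 0 became 6 with the filter at the 75th percentile and 10 without HSU 1b and 2b together, and it ran from 0 to 6 with each array left out in turn (6 without HSU 3b). The sign held in all 16 alternatives for the probe sets of Il1b, Il6, S100a8, S100a9, Nfkbia, Icam1, Vcam1 and Sele. It could not change with another filter or the intensity trend, which leave the difference as it was. For genes with 1 probe set, probe set means left it unchanged too. The replicate block gave the same differences as leaving out HSU_Sor 4. For Il1b the difference was 0.00026 without HSU_Sor 3 and 0.0079 without HSU_Sor 3 and 4. The sign did not hold for Il18 and both Tnf probe sets, and the cause was not tested. Il18, at 0.14 with all arrays, was -0.059 with the replicate block, -0.067 without HSU_Sor 3 and 4, and between -0.077 and 0.41 with each array left out. Tnf 1387691_at, at -0.0044, was 0.0094 with quantile normalization, 0.011 with median centring, 0.015 without HSU 1b and 2b, and between -0.014 and 0.0055 with each array left out. Tnf 1391384_at, at 0.0034, was -0.0079 with the replicate block, -0.00052 without HSU_Sor 3 and 4, -0.00051 as the mean of probe sets per gene, and between -0.012 and 0.016 with each array left out. Deviations from the group means had correlations of -0.0591, 0.179 and 0.144 between same-numbered arrays. Differently numbered arrays were not compared, so these values cannot settle whether the numbers pair the arrays. The main fit took the arrays as unpaired. The replicate block drops HSU_Sor 4, which has no partner, and called 0 probe sets. The 7 arrays limit the precision, and probe sets near the floor (Il6, Tnf, Sele) give little information on differences.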

Other observations

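Il1b and S100a8 were among 16 named probe sets that lay at least 1 log2 unit above every other array on HSU_Sor 3, a list chosen after its values were seen. Plekhh1 stood 1.83 above the next array, Il1b 1.81, Rbm26 1.72, Sltm 1.63, Hnrnpu 1.52 and S100a8 1.29. Rbm26, Sltm and Hnrnpu encode RNA-binding proteins. On HSU_Sor 3 Hnrnpu was at 6.65, against 4.05 to 5.13 on the other HSU_Sor arrays. HSU_Sor 4, the lowest array for Nfkbia, Vcam1 and S100a9, lay at least 1 below every other array in 42 of 15521 probe sets (0.271%), and the other arrays did so in 6 to 37.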
